A study of Mus musculus with 2 samples.

Results

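The immediate early genes Fos, Fosb, Jun, Junb, Jund, Egr1, Ier2, Atf3, Dusp1 and Zfp36 were followed across the cell populations of a Drop-seq experiment on mouse colon crypt cells. The genes were chosen by symbol, and all 10 were found among the 19294 gene symbols of the count matrix. The study sorted colon cells by the history of the transcription factor Tcf4, and asked which cell types had never switched it on (Tcf4 Lin- cells). The mice were C57BL/6 animals between 4 and 10 months of age that carried Tcf4 GfpCre/+ and RosamTmG/+ and received no pretreatment. In these animals Cre is made wherever the Tcf4 locus is active, so the lineage label depends on that 1 allele, which every mouse carried. Tcf4 Lin- cells and a mixed sort, called MIX or DP, went into 2 pools (samples 1 to 3 and samples 4 to 6), and human cells were added before droplet capture. Each barcode carries the ending X1 or X2. Neither ending could be tied to a pool or to a sort, so all cells form 1 sample and no p-value is given.

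Immediate early genes are transcribed within minutes of a stimulus, before any new protein is needed. MAP kinases and calcium signals act through factors already bound at these promoters, the transcripts are short-lived, and several of the proteins end the response again. In the gut they respond to growth factors, antigen receptor signals and injury, and enzymatic dissociation of tissue is also known to induce them. The crypts were isolated on ice and then digested with a protease at 37 degrees Celsius, and no undissociated cells are among the labels, so transcripts made in the animal and transcripts made during preparation cannot be told apart.

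Promoter sequence is shown for Fos and Jun, whose levels were low in absorptive precursors, for Atf3, whose assigned UMIs were all epithelial, and for Junb, which was high in lymphocytes. Each run holds the 150 bases before the RefSeq start on GRCm38.p6, written 5′ to 3′ on the gene's strand, and capitals mark motif matches.
Fos, chr12:85473740-85473889, plus strand: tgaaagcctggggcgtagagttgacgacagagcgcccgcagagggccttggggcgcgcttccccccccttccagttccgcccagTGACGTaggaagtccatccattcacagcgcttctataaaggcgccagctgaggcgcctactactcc
Jun, chr4:95052223-95052372, minus strand: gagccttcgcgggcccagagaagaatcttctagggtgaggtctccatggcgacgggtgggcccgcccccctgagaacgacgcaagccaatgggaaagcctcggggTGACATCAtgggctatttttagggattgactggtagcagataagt
Atf3, chr1:191183334-191183483, minus strand: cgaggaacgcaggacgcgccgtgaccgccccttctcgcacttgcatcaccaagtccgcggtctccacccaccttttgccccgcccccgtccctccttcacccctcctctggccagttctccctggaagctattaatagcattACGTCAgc
Junb, chr8:84978749-84978898, minus strand: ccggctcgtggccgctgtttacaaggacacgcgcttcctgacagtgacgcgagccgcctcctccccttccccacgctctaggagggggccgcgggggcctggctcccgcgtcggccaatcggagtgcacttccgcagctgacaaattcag

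The windows searched ran from 250 bases before to 50 after the start, on both strands. TGACGT, the core of the site read by CREB and ATF proteins, lay at bases -66 to -61 of Fos and, on the minus strand, at -8 to -3 of Atf3, and 7.51% of all 32817 windows hold it. Dusp1 held the full palindrome TGACGTCA at -143 to -136, found in 1.79% of windows, which overlaps its TGACGT matches there, and a further TGACGT at -191 to -186. Zfp36 held a CArG box, the site of serum response factor, at -58 to -49 (1.63% of windows). GCGNGGGCG, the site of the Egr zinc fingers, lay at -105 to -97 of Zfp36 and at -50 to -42 of Fosb (5.56% of windows). TGANTCA, the AP-1 site, was in none of the member windows searched and in 7.81% of all windows. TATAAA, in 13.6% of windows and left in lower case, lay at -33 to -28 of Fos and at 1 to 6 of Junb. This first search of 6 motifs found nothing in the Jun window. The looser TGACNTCA was searched afterwards for that reason, so its match at -45 to -38 of Jun was looked for with the sequence known. It is found in 8.84% of windows and also takes in the Dusp1 palindrome. These are matches of letters only, and no factor binding was measured. No window is shown for Egr1 or Ier2, and the Jund window lies upstream of the GENCODE M21 gene start. For Atf3, Dusp1 and Zfp36 the GENCODE M21 gene starts, at bases 191218039, 26562128 and 28380253, lie upstream of the windows searched. For Junb the GENCODE M21 gene start, at base 84978718, lies downstream of the RefSeq start used here. The Junb TATAAA therefore lies before the GENCODE start, and the run shown stops short of it.

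The authors' tables place 516 of the 1117 barcodes in 4 clusters: 190 natural intraepithelial lymphocytes (nIELs), 186 induced intraepithelial lymphocytes (iIELs), 93 epithelial Pigr+ cells and 47 B cells. A second table divides 106 epithelial cells into 32 stem cells, 32 secretory precursors and 42 absorptive precursors. Assigned cells held from 504 to 23205 unique molecular identifiers (UMIs, each standing for 1 captured transcript), with a median of 1126. Markers followed the names, with T cell markers at 9223 UMIs per 1000000 (CPM) in nIELs and 20.1 CPM in epithelial cells, where Cd3e, Cd3g, Cd7, Cd8a and Trac were at 0. The exceptions were the iIEL and B cell clusters. In iIELs epithelial markers reached 7873 CPM, against 334 CPM in nIELs and 23134 CPM in the epithelial cluster. In B cells the T cell markers stood at 2138 CPM (164 UMIs) and the 5 myeloid markers at 873 CPM (67 UMIs, with Itgam and Adgre1 at 0), and the endothelial pair gave 10 UMIs. The 1 myeloid marker with enough UMIs to be counted was 31.8-fold that of the other cells. Among the cells with an IEL label, 14 also appear in the epithelial table, and all 4 cells above 15000 UMIs are of the epithelial subclusters. No barcode was shared between X1 and X2, but 38 pairs of assigned barcodes differed at 1 base, and joining them left 496.

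In the assigned cells the 10 genes gave 1268 UMIs, or 1488 CPM. The summed level was 1849 CPM in nIELs (exact Poisson 95% interval 1682 to 2029), 1695 CPM in B cells (1416 to 2012), 1514 CPM in epithelial cells (1365 to 1675) and 1102 CPM in iIELs (983 to 1231). The iIEL interval lay below all others. The nIEL and epithelial intervals did not overlap each other, and the B cell interval overlapped both. Against all other assigned cells the sum was 1.38-fold in nIELs and 0.655-fold in iIELs. With the 14 cells of both tables counted as epithelial, the iIEL value became 0.906. The epithelial fold was 1.02, from 0.682 within X1 and 1.60 within X2, and the B cell fold was 1.15. All such intervals cover counting error only and treat UMIs as independent. At least 1 UMI of any of the 10 genes was found in 66.3% of nIELs, 56.5% of iIELs, 72.0% of epithelial cells and 70.2% of B cells. These shares are not corrected for depth, which differed between the clusters.

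**Figure D1:**
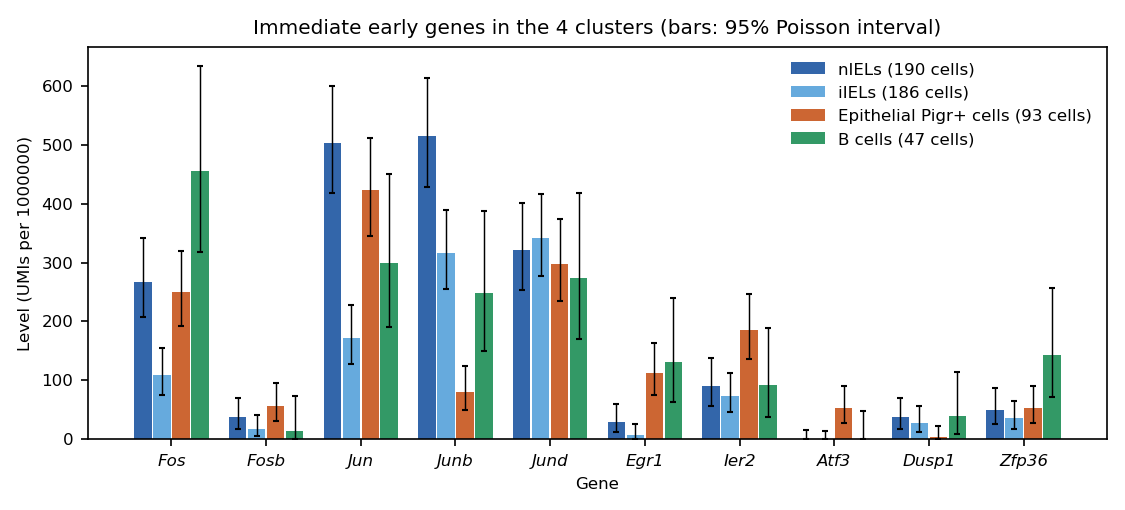
Level of each immediate early gene in UMIs per 1000000 (vertical axis) in the authors' 4 clusters, from summed UMIs, with exact Poisson 95% intervals as error bars. Junb stands at 515 in nIELs and 80.5 in epithelial cells, Jund is near 300 in every cluster, and Atf3 has UMIs in the epithelial cluster alone.

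Fos and Fosb encode the Fos-side partners of the AP-1 dimer. Fos had 65 UMIs in nIELs, 31 in iIELs, 62 in epithelial cells and 35 in B cells, which is 268, 109, 250 and 456 CPM. The B cell level was 2.24-fold that of the other cells (95% interval 1.51 to 3.25) and the iIEL level 0.382-fold (0.252 to 0.564). With the cells of both tables counted as epithelial, the iIEL value of Fos became 0.586, outside that interval. Fos was higher in B cells within both barcode sets, at 2.04-fold in X1 and 4.67-fold in X2, where there were 5 B cells. The B cell cluster also held the T cell and myeloid marker UMIs given above, and their part in its levels of Fos, Egr1 and Zfp36 was not tested. Fosb was sparse, with 9, 5, 14 and 1 UMIs in the same order. Its epithelial fold was 2.27 (1.02 to 5.04), and 7 of the 14 UMIs came from 1 cell.

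Jun, Junb and Jund encode the other side of AP-1, and each had its own distribution. Jun stood at 503 CPM in nIELs, 423 CPM in epithelial cells, 300 CPM in B cells and 172 CPM in iIELs, from 122, 105, 23 and 49 UMIs. Its iIEL level was 0.392-fold that of the other cells (0.282 to 0.534), and 0.605-fold with the cells of both tables counted as epithelial. Junb had 125 UMIs in nIELs, 90 in iIELs, 19 in B cells and 20 in epithelial cells, or 515, 317, 248 and 80.5 CPM. It was 2.43-fold higher in nIELs (1.89 to 3.13) and 0.208-fold in epithelial cells (0.125 to 0.328), and the epithelial value stayed at or below 0.327 under all 11 alternatives run for it. A Junb UMI was found in 34.7% of nIELs and 6.45% of epithelial cells, although the epithelial cells were deeper, with a median of 1645 against 1146 UMIs. With cells thinned to 700 UMIs the shares were 26.6% and 2.29%. Jund, which is known for steady expression beside its inducible relatives, lay between 274 and 341 CPM in the 4 clusters, and no fold left the range from 0.852 to 1.12.

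Egr1, a zinc finger factor, and Ier2, a nuclear protein, both had a higher level in epithelial cells than in nIELs or iIELs. Egr1 had 7 UMIs in nIELs, 2 in iIELs, 28 in epithelial cells and 10 in B cells, or 28.8, 7.04, 113 and 130 CPM. The epithelial level was 3.58-fold that of the other cells (1.93 to 6.79), but the sets disagreed, with 0.679-fold in X1 and 12.7-fold in X2. A total of 13 of the 28 epithelial UMIs came from 1 cell. The B cell fold of 2.73 also differed between the sets, at 8.37 in X1 and 0 in X2. Ier2 had 22, 21, 46 and 7 UMIs, and its epithelial fold was 2.24 (1.47 to 3.41), with 1.55 in X1 and 2.41 in X2. Of the 46 epithelial UMIs 17 came from 1 cell, and without that cell the fold was below 2. Atf3, a repressor of the ATF family that is induced by stress, had 13 UMIs in 3 epithelial cells, 11 of them in 1 cell, and none in 190 nIELs, 186 iIELs or 47 B cells. Without that 1 cell 2 Atf3 UMIs were left, under the floor of 3 counts, so no fold is given. By that floor a count of 0 allows a share of up to 1.58% of nIELs with an Atf3 UMI, and the Clopper-Pearson upper limit was 1.92%.

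Dusp1, a phosphatase that switches off MAP kinases, and Zfp36, an RNA-binding protein that hastens the decay of cytokine transcripts, act against the response. Dusp1 had 9 UMIs in nIELs, 8 in iIELs, 3 in B cells and 1 in epithelial cells. The ratio in epithelial cells was 0.122 with a counting interval of 0.00293 to 0.760. Zfp36 had 12, 10, 11 and 13 UMIs in nIELs, iIELs, B cells and epithelial cells. Its B cell level of 143 CPM was 3.18-fold that of the other cells (1.46 to 6.40), with 1.92-fold in X1 and 11.5-fold among the 5 B cells of X2.

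For genes with at least 20 UMIs in the cells compared, a fold of 2 either way was counted, without a test. Atf3, with 13 UMIs, did not reach that number, so 9 members were counted. In nIELs 1 member was higher (Junb), where 11.1% of all 6173 genes were, and 1 was lower (Egr1), where 22.3% were. In iIELs no member was higher (4.33% of genes) and 4 were lower, namely Fos, Fosb, Jun and Egr1 (7% of genes). In epithelial cells 3 were higher (Fosb, Egr1 and Ier2, 19.2% of genes) and 2 lower (Junb and Dusp1, 24% of genes). In B cells 3 were higher (Fos, Egr1 and Zfp36, 9.15% of genes) and 1 was lower (Fosb, 30.6% of genes). The nIEL shares are near or below the background and are no result about the members. With the cells of both tables counted as epithelial, Egr1 alone was lower in iIELs (22.1% of genes) and Dusp1 alone was higher (10.1% of genes), so those 2 counts are no result about the members.

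Within the epithelium the summed level was lowest in absorptive precursors at 626 CPM (506 to 765), beside 1593 CPM in stem cells (1309 to 1920) and 2005 CPM in secretory precursors (1768 to 2265). The absorptive interval lay below both others, and those of stem cells and secretory precursors overlapped. Against the other epithelial cells the folds were 0.336, 1.27 and 2.16. Within the barcode sets only the absorptive fold kept its direction, at 0.435 in X1 and 0.304 in X2. The secretory fold was 0.936 in X1 and 8.73 in X2, where there were 4 such cells, and the stem cell fold was 4.07 and 0.204. Without the 14 epithelial cells that also held lymphocyte markers the stem cell fold was 0.712. The share of cells with at least 1 UMI of the 10 genes had another order, with 78.6% in the absorptive, 78.1% in the secretory and 62.5% in the stem cell subcluster. It is not corrected for depth, whose median was 1939.5, 1820.5 and 995.5 UMIs in the same order. Absorptive precursors thus held a UMI of any of the 10 genes as often as secretory precursors, with fewer UMIs per total. The single genes differed, with a Jund UMI in 57.1% of absorptive and 50% of secretory precursors. For Fos the shares were 14.3% and 43.8%, and for Jun 14.3% and 40.6%. Of the rest, Zfp36 and Dusp1 were found in a larger share of absorptive precursors, and the others in a smaller share.

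**Figure D2:**
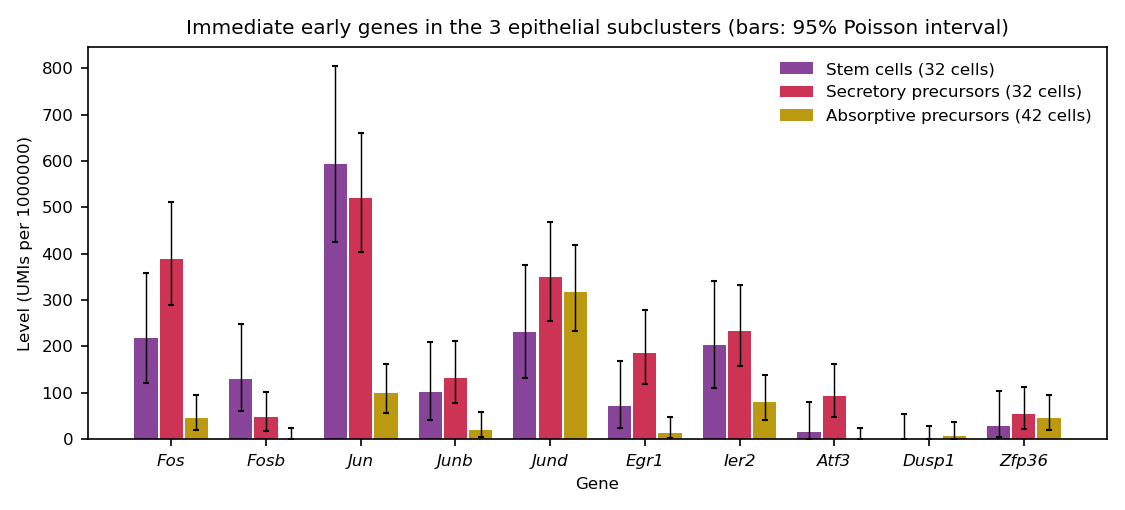
Level of each immediate early gene in UMIs per 1000000 (vertical axis) in the 3 epithelial subclusters, from summed UMIs, with exact Poisson 95% intervals as error bars. Fos, Jun, Junb, Egr1 and Ier2 are lowest in absorptive precursors, while the intervals of Jund overlap in all 3.

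Single cells carried much of the epithelial signal. In secretory precursors 1 cell of set X2 with 11080 UMIs held 128 UMIs of the 10 genes, 49.6% of the subcluster's, while it held 8.61% of all UMIs there. They were 40 of Jun, 26 of Fos, 17 of Ier2, 13 of Egr1, 11 of Atf3, 10 of Jund, 4 each of Fosb and Zfp36 and 3 of Junb. The cell also held 286 UMIs of Spink4, 137 of Agr2, 94 of Reg4 and 29 of Muc2, which are secretory genes, and no assigned barcode lay 1 base away from it. The next secretory cell held 31 UMIs, and without the first the level was 1106 CPM (924 to 1313). In stem cells 1 cell of 2243 UMIs held 41 of the 110 UMIs, and the others stood at 1033 CPM (804 to 1307). That cell also held 31 UMIs of Spink4, 25 of Reg4, 3 of Mki67 and 1 of Sox4. A stem cell of 584 UMIs with 18 UMIs of these genes is listed as an nIEL in the other table. In absorptive precursors the highest cell held 15 UMIs at a depth of 23171 UMIs, and the next held 7. The highest cell is listed as an iIEL in the other table, 1 assigned barcode lies 1 base away from it, and it held 38 UMIs of Clca1, 19 of Muc2, 17 of Agr2 and 13 of Spink4.

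**Figure D3:**
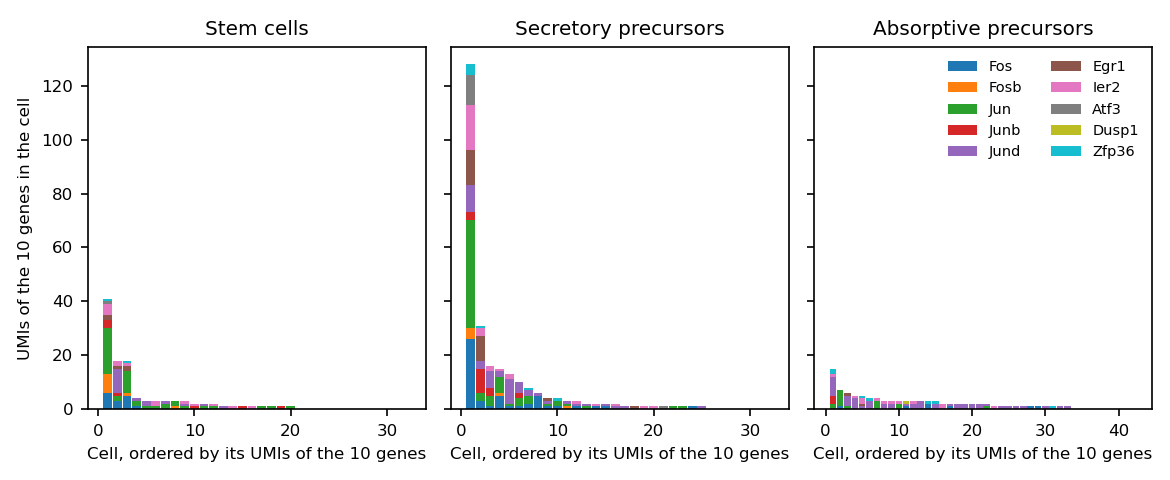
UMIs of the 10 genes in each of the 106 epithelial cells (vertical axis), stacked by gene and ordered from the highest cell within each subcluster. In secretory precursors 1 cell reaches 128 and the next 31, in stem cells the highest is 41, and in absorptive precursors the highest is 15.

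The stem, secretory and absorptive subclusters held 15, 50 and 7 Fos UMIs, or 217, 389 and 46.1 CPM. The secretory fold was 3.90 (2.32 to 6.76), and 2.05 (1.10 to 3.83) without the 128-UMI cell. The absorptive fold was 0.140 (0.0543 to 0.306), and 0.221 (0.0833 to 0.499) without that cell. The absorptive level of Fos was thus below that of the other cells with or without it.

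Of Jun, the same subclusters held 41, 67 and 15 UMIs, or 594, 521 and 98.8 CPM. Its secretory fold of 2.05 became 0.905 (0.550 to 1.46) without the 128-UMI cell, and its stem cell fold of 2.03 became 3.81 (2.42 to 6.00). The stem cell value was 8.05 within X1 and 0.215 within X2, so the sets gave opposite directions. A total of 17 of the 41 stem cell UMIs came from 1 cell, and without the cells that also held lymphocyte markers the stem cell fold of Jun was 1.06. In absorptive precursors Jun was 0.181-fold (0.0979 to 0.312), at 0.365 or below under all 11 alternatives.

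Of Junb they held 7, 17 and 3 UMIs, the last all in 1 cell. Egr1 had 5, 24 and 2 UMIs, and 22 of the 24 came from 2 secretory cells of X2. Ier2 had 14, 30 and 12 UMIs, and its absorptive fold of 0.355 (0.171 to 0.684) became 0.546 (0.252 to 1.12) without the 128-UMI cell. Jund had 232, 349.7 and 316 CPM in the same order and folds of 0.699, 1.21 and 1.03. Of its 16 stem cell UMIs, 9 came from 1 cell that is listed as an iIEL in the other table. The stem cell fold was 0.259 within X1 and 0.670 within X2. It was also at least 2-fold lower without cells above 15000 UMIs and with CPM averaged over cells. A Jund UMI was found in 24 of 42 absorptive precursors, in 16 of 32 cells of the secretory and 7 of 32 cells of the stem subcluster, and in 24.3% of the 362 IELs outside the subclusters. None of these cell types is known to lack the genes, so free RNA could not be gauged from them.

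The 4 sparser genes gave few UMIs in the epithelium. Fosb had 9 UMIs in stem cells, 7 of them in 1 cell, 6 in secretory precursors and none in 42 absorptive precursors. By the floor of 3 counts the last allows up to 7.14% of cells, and the Clopper-Pearson upper limit was 8.41%. Atf3 had 12 UMIs in secretory precursors, 11 of them in the 128-UMI cell, 1 in stem cells and none in absorptive precursors. Zfp36 had 7 UMIs each in secretory and absorptive precursors and 2 in stem cells, and Dusp1 had 1 UMI in all. No difference between subclusters was detectable for Dusp1 or Zfp36 at this depth.

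By the rule of 20 UMIs, 6 members were counted among 3013 genes. In secretory precursors 4 were at least 2-fold higher (Fos, Jun, Junb and Egr1, 9.16% of genes) and none was lower (18% of genes). Without the 128-UMI cell 2 of 5 were higher, Fos and Junb (9.09% of genes), none was lower (19.1% of genes), and Egr1, with 18 UMIs left, was no longer counted. In absorptive precursors 5 were lower (Fos, Jun, Junb, Egr1 and Ier2, 12.6% of genes) and none was higher (12.9% of genes), and without that cell 3 of 5 were lower (Fos, Jun and Junb, 12.6% of genes) and none was higher (13.3% of genes). In stem cells 1 was higher (Jun, 13.1% of genes) and none was lower (16.6% of genes), and without that cell 2 of 5 were higher (Jun and Ier2, 12.8% of genes) and none was lower (16.4% of genes). The median fold of the 6 was 0.172 in absorptive precursors, beside 1.08 over all genes. The subclusters were made from the same cells, so these counts are a description.

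**Figure D4:**
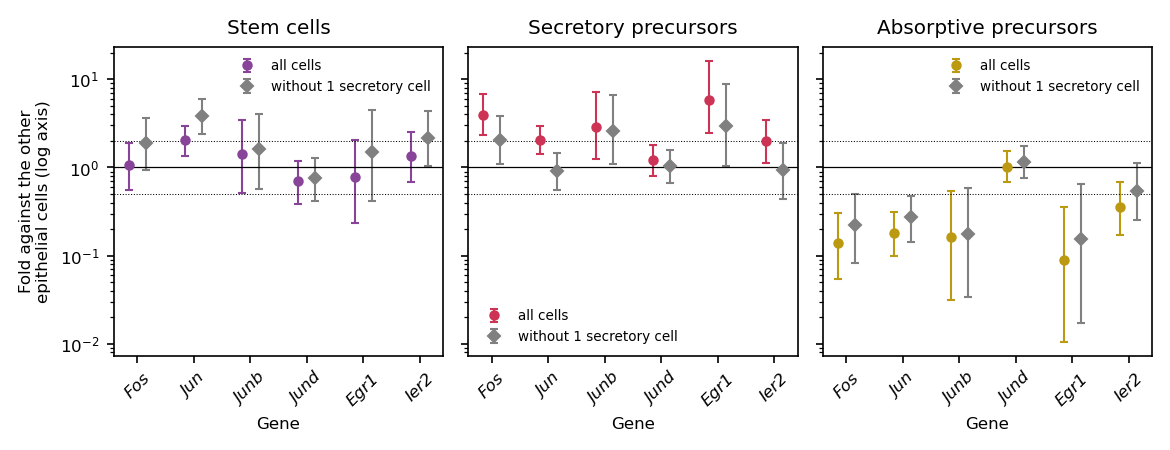
Fold of the 6 members with at least 20 UMIs in each epithelial subcluster against the other epithelial cells (log axis), with exact binomial 95% intervals, for all cells and without the secretory cell of 128 UMIs. Dotted lines mark 2-fold either way. In absorptive precursors Fos, Jun and Junb lie below the lower line both ways, and in secretory precursors Jun moves from 2.05 to 0.905.

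Over the 516 cells, with each gene centred within its cluster and barcode set, the gene most like Fos was Jun (Pearson r = 0.27 of log-scaled UMIs, among 1389 genes), followed by Jund (0.18) and Mphosph8 (0.16). Both Fos and Jun had a UMI in 39 cells. For Jun, Slc38a2 (0.17) and Pdia4 (0.16) came after Fos. For Junb the leading genes were Rps13-ps5 (0.17), Sf3b1 (0.16) and Fos (0.15), and for Jund they were Fos (0.18), Tceb1 (0.17) and Gltscr2 (0.16). These are weak correlations in sparse counts, the cells share depth and free RNA, and the cell of 128 UMIs is among them.

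Of 33 other early response genes listed, 31 were in the matrix and 20 had 20 UMIs in the assigned cells. In epithelial cells 11 of the 20 were at least 2-fold lower (24% of all genes), among them Btg1, an antiproliferative gene, at 0.118-fold (0.0700 to 0.186). Klf4, a factor of differentiating epithelium, was higher at 3.37-fold (2.37 to 4.82), as was Trib1, which makes 2 of the 20 (19.2% of all genes). In B cells 8 were higher (9.15% of all genes) and 2 lower (30.6%), with Klf2 at 6.38-fold, the phosphatase gene Dusp2 at 5.05-fold and Nfkbia, the inhibitor of NF-kB, at 3.37-fold. In nIELs 4 were higher (Btg1, Klf2, Ppp1r15a and Rhob, 11.1% of all genes) and 3 lower (22.3%), and in iIELs Gadd45b was higher at 4.54-fold (4.33%) and 3 were lower (7%). Among the 6 counted in the subclusters, Btg2, an antiproliferative gene like Btg1, had 27 of its 31 UMIs in the secretory subcluster. Its secretory fold was 11.6 (4.04 to 45.6) and 7.51 (2.42 to 30.9) without the 128-UMI cell. Klf6 went the other way, with 34 UMIs in absorptive precursors and a fold of 3.16 (1.65 to 6.38).

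Of the 9 AP-1 partners and Zfp36 relatives, 6 were counted in the clusters. Zfp36l1 was 2.51-fold in nIELs, 2.76-fold in B cells and 0.228-fold in epithelial cells. Batf, an AP-1 partner of lymphocytes, had 13 UMIs in nIELs and none in epithelial cells. Of the 19 upstream kinases and factors, 13 were counted, and 2 were higher in nIELs (Elk3 at 3.51-fold and Elk4 at 2.06-fold) and 3 lower (Hras, Map2k1 and Mapk3). Over all genes 11.1% were higher and 22.3% lower there, so these counts are near the background and are no result about the list. In epithelial cells Hras was higher at 3.44-fold and Elk3 was lower, with no UMI, which at 1 of 13 each way lies below the 19.2% and 24% of all genes.

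Heat shock genes, which also respond to handling of cells, were counted in the same way. In nIELs Dnajb1 was 2.94-fold (1.90 to 4.57) and Hspa1b 2.01-fold, and Hsph1 was lower, so that 2 of the 10 counted were higher and 1 lower, beside 11.1% and 22.3% of all genes. In epithelial cells Dnaja1, Hspa1a and Hspa1b were lower, at 0.327-, 0.239- and 0.206-fold, which is 3 of the 10 beside 24% of all genes. In iIELs Dnajb1 was lower, 1 of the 10 beside 7% of all genes, and none was higher (4.33%). In B cells Hspa1a was higher, 1 of the 10 beside 9.15% of all genes, and none was lower (30.6%). Those counts of 1 are near the shares of all genes and are no result about the list. In each subcluster 9 were counted. In stem cells Hsp90aa1 was 2.12-fold and Dnajb1 2.81-fold, which is 2 of 9 beside 13.1% of all genes. In secretory precursors Dnaja1, Hspd1 and Hsph1 were lower, 3 of 9 beside 18% of all genes. In absorptive precursors, where the 10 genes summed lowest, Dnaja1 was higher at 3.33-fold and Dnajb1 was 0.383-fold. There 1 of 9 each way is near the 12.9% and 12.6% of all genes and is no result about the list. The part of tissue handling in any of these values was not tested.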

How the data were processed

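Colon crypt cells were profiled by Drop-seq. The authors made the counts with the McCarroll laboratory's pipeline. STAR 2.5.0 and Picard 1.137 stand in the submitters' processing notes, as do the genome builds mm10 and hg19. The deposited counts are whole UMIs per gene symbol and barcode, without normalization. The gene annotation and the filters on cells are not given in the sources used here. The 1117 barcode columns carry no sample name, so all cells were treated as 1 sample. Clusters were joined by barcode from the authors' tables, and no doublet caller was run.

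UMIs were summed per cluster and divided by its total (CPM), with exact Poisson 95% intervals. Each cluster was set against all remaining cells of its table as a fold with an exact conditional binomial interval, and the floor was 3 counts. Shares of cells had Clopper-Pearson intervals and were recomputed on cells thinned to 700 UMIs in 100 draws. A 2-fold rule was applied to genes with at least 20 UMIs. Likeness used ln(1 + UMIs per 10000). Named were all 10 genes, the 3 most alike genes of each member with at least 100 UMIs, and listed genes past 2-fold or with the most UMIs.

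The members and lists were chosen with earlier results of these data known. The promoter motifs were 6 at first, and TGACNTCA was added after that search had been read. The folds and intervals were tested on simulated Poisson counts of whole clusters, the model that the intervals assume. Those counts hold no spread between cells, so the check cannot show how the intervals fare with it. Without replicates, no test between conditions was made. Alternatives were each barcode set alone, other totals and size factors, CPM averaged over cells, joined barcodes, other label assignments, cells left out, and other UMI and fold thresholds. Leaving out the 128-UMI secretory cell was chosen after seeing the data. Positions came from GENCODE M21 and promoters from RefSeq (GRCm38.p6). Python 3.11.15, numpy 2.4.6, scipy 1.17.1, pandas 2.3.3 and matplotlib 3.10.9 were used.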

Additional observations from a re-analysis of the deposited data

Results flagged for a closer look

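The 601 barcodes that neither of the authors' tables lists held 169 UMIs of the 10 genes, which is above the limit of 3 counts that a count of 0 allows. They stood at 984 CPM (841 to 1144), below the 1488 CPM of the assigned cells, with a median depth of 212 UMIs per barcode. Junb gave 46 of these UMIs, Jun 39, Jund 32, Fos 21, Ier2 13, Fosb 5, Atf3 4, Dusp1 4, Egr1 3 and Zfp36 2. A UMI of any of the genes was found in 16.8% of these barcodes. Atf3, which among the assigned cells was found in epithelial cells alone, had UMIs in 3 of them.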

How the results depend on the processing

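There is 1 sample, so no value has a replicate check, and depth leaves Fosb, Egr1, Atf3, Dusp1 and Zfp36 with few UMIs. No paired analysis was possible because all cells form 1 group and the columns carry no replicate number. The summed fold in absorptive precursors stayed below 1 under all 11 alternatives (0.304 to 0.576), and that in nIELs stayed above 1 (1.14 to 1.61). Of the folds of single members under the alternatives, 627 stayed within their interval, 106 moved outside it and 9 reversed. Only folds past 2-fold as reported were counted as reversed on crossing 1, so some of the 627 also changed side. Size factors shifted the median of all genes by 0.25 (log2) in secretory precursors and by -0.12 in absorptive precursors.

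Within X1 alone the summed fold was 0.936 in secretory precursors, which is reversed, 4.07 in stem cells, 0.435 in absorptive precursors, 0.682 in epithelial cells, 0.782 in iIELs and 1.60 in nIELs. There Egr1 was 0.679 in epithelial cells, and Jun, Junb and Egr1 were 0.730, 0.794 and 0.714 in secretory precursors. Members counted were 8 in the clusters and 4 in the subclusters. In brackets is the share of all genes past 2-fold, and counts near it are no result about the members. Members higher numbered 1 in epithelial cells (17.8% of genes), 3 in stem cells (15.8%), 2 in nIELs (9.76%) and 1 in secretory precursors (10.7%). Members lower numbered 3 in absorptive precursors (11.4%) and 2 in B cells (30.5%). They numbered 1 in epithelial cells (26.5%), 1 in stem cells (33.1%) and 0 in nIELs (18.9%).

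Within X2 alone the summed fold was 8.73 in secretory precursors (4 cells), 0.204 in stem cells, 1.60 in epithelial cells, 1.97 in B cells, 0.352 in iIELs and 1.14 in nIELs. There Egr1 was 0 in B cells and Jun 0.215 in stem cells. Members counted were 6 in the clusters and 5 in the subclusters. No member was higher in stem cells (8.45% of genes). Members lower numbered 4 in stem cells (12.1%), 3 in B cells (42.8%), 1 in epithelial cells (13.4%) and 2 in nIELs (38.5%).

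With CPM averaged over cells the summed fold was 0.442 in absorptive precursors, 0.745 in epithelial cells, 0.789 in iIELs, 1.83 in stem cells and 1.16 in secretory precursors. Egr1 was 1.08 in nIELs and Jun 0.933 in secretory precursors. Members counted were 9 in the clusters and 6 in the subclusters. Members higher numbered 1 in epithelial cells (24.3% of genes), 4 in stem cells (15.2%), 0 in nIELs (7.08%) and 1 in secretory precursors (13%). Members lower numbered 1 in stem cells (26.3%), 2 in iIELs (18.2%) and 0 in nIELs (20%).

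Without the 128-UMI secretory cell the summed fold was 1.19 in secretory precursors, 1.91 in stem cells, 0.487 in absorptive precursors, 0.707 in epithelial cells and 1.60 in nIELs, and Jun was 0.905 in secretory precursors. Members higher numbered 1 in epithelial cells and 2 each in secretory precursors, stem cells and nIELs, and members lower 3 in absorptive precursors and 0 in nIELs. Without the highest cell of each cluster the summed fold was 1.45 in secretory precursors, 0.576 in absorptive precursors, 0.745 in epithelial cells and 1.61 in nIELs, with 1 member higher in epithelial cells, 1 in secretory precursors and 2 in nIELs, and 2 lower in absorptive precursors.

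With the cells of both tables counted as epithelial the summed fold was 0.906 in iIELs and 0.825 in epithelial cells. In iIELs 1 of 9 members was higher (10.1% of genes) and 1 lower (22.1%). With the cells of both tables left out 1 of 6 members was lower in stem cells (25.3%). Without cells above 15000 UMIs the iIEL sum was 0.791 with 2 of 9 members lower (17.2%). In stem cells 1 of 6, Jund, was then lower (24.6%). Without mixed cells, those with at least 2 UMIs of epithelial and 2 of lymphocyte markers, the stem cell sum was 0.712. Of 5 members, 0 were then higher in stem cells (12.6%) and 1 was lower (14.6%).

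At 1.5-fold, 3 members were higher in nIELs. At 3-fold, members higher numbered 1 in B cells, 1 in epithelial cells, 0 in nIELs, 0 in stem cells and 2 in secretory precursors, and members lower 0 in B cells, 1 in iIELs and 0 in nIELs. With at least 10 UMIs 2 were higher and 1 lower in stem cells, and 2 were lower in B cells and 2 in nIELs. With no filter 1 was higher in absorptive precursors and 2 in stem cells, and 2 were lower in B cells, 2 in stem cells, 2 in nIELs and 1 in secretory precursors. The shares of all genes under these thresholds are not given, so these counts are no result about the members. The causes were not tested.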
